A study of Mus musculus with 4 samples.

Results

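Imprinted genes, which are transcribed mainly or only from the allele of one parent, were examined in cells that were sorted for KSP from differentiating mouse ES cells. The set was a list of 40 mouse genes read by symbol on the array. Of these, 36 had at least 1 probe set assigned to a single gene (93 probe sets in all), among 18193 such genes on the array, and 34 passed the filter on dim probe sets, among 12849 genes tested. The 34 genes comprised 15 of the 19 paternally expressed genes of the list, 18 of its 20 maternally expressed genes, and Gnas, whose products come from either or both alleles.

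The samples were 2 KSP-positive and 2 KSP-negative fractions. Both fractions came from 1 mouse ES cell line, CAG-GFP EB3, of strain 129/Ola and with a GFP transgene under the CAG promoter, on day 18 of differentiation with Activin at 10 ng/mL after embryoid body formation. They were separated by flow cytometry with an antibody against kidney specific protein, a cadherin of the renal tubule encoded by Cdh16, in 2 independent experiments. Each array shows the mean of a mixed population. The number of arrays limits the precision. The limma p-values measure only the spread between 2 samples of a fraction, drawn toward a trend fitted over all genes tested. Cdh16 itself had log2 signals of 5.66 and 5.03 in KSP-positive replicates 1 and 2, against 5.30 and 4.71 in KSP-negative replicates 1 and 2. These values overlapped, and the difference of 0.34 did not pass the test (limma, adjusted p = 0.816). The signals lay near the filter level of 5.14, which the mean of the KSP-positive fraction alone exceeded. The arrays correlated at 0.945 within each fraction and at 0.856 to 0.921 between fractions over the genes tested.

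Imprinting is set in the germ line by DNA methylation at control regions, which is kept through the cleavage divisions of the embryo by a complex of the zinc finger protein ZFP57 with TRIM28 and by the maintenance methyltransferase DNMT1. The genes lie in clusters in which one control region acts on neighbours expressed from opposite alleles, often through a long non-coding RNA. Many imprinted genes regulate fetal and placental growth, and several are abundant in embryonic mesenchyme and decline after birth. ES cells can lose or gain imprints in culture. The arrays measure total transcript and cannot tell the alleles apart, so that a higher signal can come from 1 allele or from both.

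The promoter windows of 3 genes are shown as background, and no difference between the fractions was tested against them. They were chosen after the values were seen, since Plagl1 and Dlk1 had the largest differences of the set and Peg3 one close to 0. The windows span 300 bases around the annotated start in RefSeq (GRCm38.p6) at chr10:13090582-13090881 on the plus strand for Plagl1, chr12:109452573-109452872 on the plus strand for Dlk1 and chr7:6730370-6730669 on the minus strand for Peg3. They are written 5′ to 3′, and capitals mark the hexamer TGCCGC, the core of the methylated motif that ZFP57 binds, on either strand.
Plagl1: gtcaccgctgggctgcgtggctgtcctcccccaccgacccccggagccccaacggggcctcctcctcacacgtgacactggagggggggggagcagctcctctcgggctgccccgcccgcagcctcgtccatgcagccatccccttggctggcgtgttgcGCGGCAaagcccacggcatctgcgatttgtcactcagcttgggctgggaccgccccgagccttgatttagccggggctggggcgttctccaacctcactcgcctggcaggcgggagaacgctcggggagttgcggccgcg
Dlk1: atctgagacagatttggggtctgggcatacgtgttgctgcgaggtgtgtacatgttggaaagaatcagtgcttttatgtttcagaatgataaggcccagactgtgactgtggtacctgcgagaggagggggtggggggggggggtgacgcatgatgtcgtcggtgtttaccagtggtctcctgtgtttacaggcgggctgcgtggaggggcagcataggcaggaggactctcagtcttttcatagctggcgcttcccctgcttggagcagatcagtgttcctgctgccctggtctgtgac
Peg3: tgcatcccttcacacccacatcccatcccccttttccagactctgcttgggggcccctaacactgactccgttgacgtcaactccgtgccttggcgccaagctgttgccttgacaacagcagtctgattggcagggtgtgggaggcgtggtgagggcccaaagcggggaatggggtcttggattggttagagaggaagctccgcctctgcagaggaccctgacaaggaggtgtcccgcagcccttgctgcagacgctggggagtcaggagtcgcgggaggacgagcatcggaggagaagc
The Plagl1 window held 26 CpG dinucleotides and 1 hexamer, the Dlk1 window 9 CpG and none, and the Peg3 window 13 CpG and none, against a median of 7 CpG over all 32851 windows of the table. The Peg3 window shares 263 bases with that of Usp29, its neighbour on the opposite strand. Windows were counted for 33 of the 40 listed genes, and Impact was not among the 33. Their 51 windows included 14 (27.5%), of 13 genes with Mest counted by 2 overlapping windows, that held the hexamer, against 11.6% of all windows. The hexamer contains a CpG, and the windows of these genes held a median of 16 CpG, so the shares were not compared at equal CpG content. A match is a stretch of letters and not a measured binding site, and methylation was not measured in these samples.

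Over the set, signals were mostly somewhat higher in KSP-positive cells, and 1 gene passed the test. Plagl1 was called higher and no gene was called lower at an adjusted p under 0.05, which held for 1.84% and 1.65% of all genes tested. At an unadjusted p under 0.05 there were 6 higher and 1 lower. Counts at this threshold, here and for the lists below, stand without a share of all genes and only describe the genes named. The fractions did not overlap for 14 genes that were higher in KSP-positive cells (41.2% of the 34) and for 5 that were lower, against 24.4% and 24.6% of all genes. Over 2-fold differences were found for 6 genes in the higher direction (17.6%) and 2 in the lower, against 7.92% and 7.66% of all genes. With no overlap as well there were 6 and 1, against 7.6% and 7.26% of all genes. The median log2 difference, KSP-positive minus KSP-negative, was 0.48, against -0.03 over all genes, and 25 of 34 differences (73.5%) were positive, against 48.4% of all genes. In 26 genes the difference was under 2-fold, and in 12 it was larger than the gap between replicates in both fractions, against 35.4% of all genes. Snrpn, Nnat, Slc22a18 and Calcr were above the filter level in 1 fraction only, so these counts only describe the genes that passed. In bulk samples, more cells of a type and more RNA per cell cannot be told apart.

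**Figure D1:**
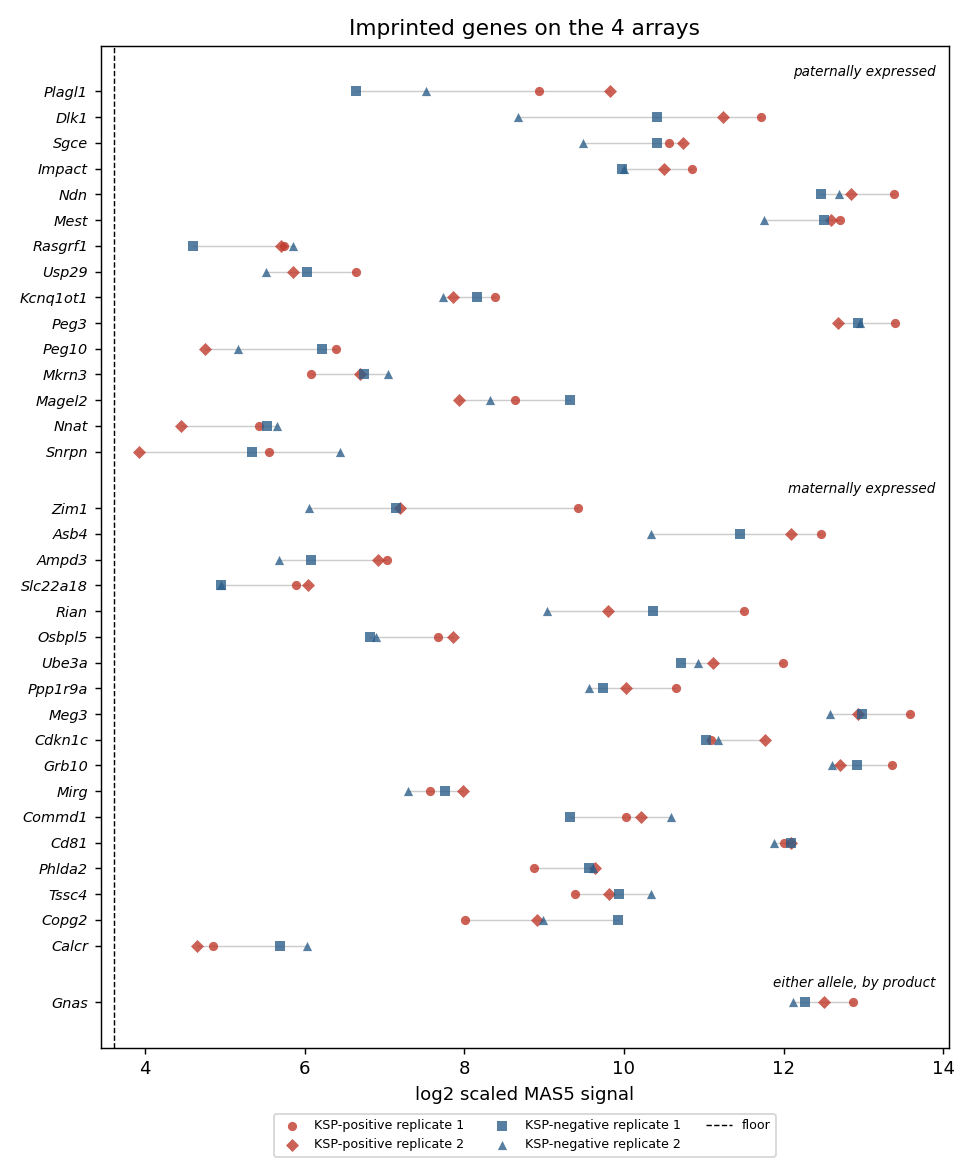
Log2 scaled MAS5 signal (x axis) of the 34 imprinted genes (y axis), grouped by the allele that is expressed; each symbol is 1 array, red for KSP-positive and blue for KSP-negative replicates, and the dashed line is the floor. Plagl1, Dlk1, Zim1 and Asb4 show the KSP-positive arrays above both KSP-negative arrays, while Peg3, Cd81 and Kcnq1ot1 overlap.

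The zinc finger factors differed among themselves. Plagl1, a transcription factor that restrains proliferation and acts on other imprinted genes, had log2 signals of 8.94 and 9.83 in KSP-positive replicates 1 and 2, against 6.65 and 7.52 in KSP-negative replicates 1 and 2. Both KSP-positive arrays lay above both KSP-negative arrays, with a gap larger than that between replicates. The difference was 2.30 (SE 0.44, 95% interval 1.32 to 3.28, adjusted p = 0.0200), a 4.92-fold higher signal in KSP-positive cells. It rests on 1 of 3 probe sets, and whether that probe set also reads other transcripts was not tested. The other probe set above the filter had 5.39 and 5.21 in KSP-positive replicates, against 4.61 and 5.69 in KSP-negative replicates, a difference of 0.15 with overlap, and the third was at the floor on all 4 arrays. Averaged over its probe sets, Plagl1 differed by 1.22 (adjusted p = 0.170), and without KSP-negative replicate 1 the adjusted p of the brightest probe set was 0.0505.

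Zim1, a zinc finger gene of the Peg3 cluster expressed from the maternal allele, had 9.42 and 7.20 in KSP-positive replicates, against 7.15 and 6.06 in KSP-negative replicates. KSP-positive replicate 1 stood far above the others, and replicate 2 exceeded KSP-negative replicate 1 by a small margin. The difference of 1.71 (SE 0.65) did not pass (adjusted p = 0.195). Its size depended on KSP-positive replicate 1, since the difference was 0.60 without it and 2.82 (adjusted p = 0.000481) without KSP-positive replicate 2. Peg3, a large zinc finger protein of the same cluster expressed from the paternal allele, had 13.39 and 12.68 in KSP-positive replicates, against 12.93 and 12.95 in KSP-negative replicates. These values overlapped, and the difference was 0.09 (95% interval -0.65 to 0.84). The 3 probe sets of Peg3 above the filter ran from 0.09 to 0.90. Usp29, a deubiquitinase family gene that shares the Peg3 promoter region, differed by 0.47 with overlap.

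Among ligands, receptors and signalling proteins, Dlk1 had the largest difference. Dlk1 is a transmembrane protein related to Notch ligands that is abundant in embryonic mesenchyme and preadipocytes. It had 11.71 and 11.24 in KSP-positive replicates, against 10.41 and 8.67 in KSP-negative replicates. All KSP-positive values were higher, and the KSP-negative replicates stood further apart than the KSP-positive ones. The difference of 1.93 (SE 0.51, 95% interval 0.82 to 3.05), a 3.82-fold higher signal, did not pass (adjusted p = 0.0664). A second probe set had 8.42 and 6.82 in KSP-positive replicates, against 6.44 and 5.08 in KSP-negative replicates, a difference of 1.86. The result turned on single arrays. Leaving out KSP-positive replicate 2 gave an adjusted p of 0.0103. Leaving out KSP-negative replicate 1 gave a difference of 2.80 (adjusted p = 0.00379), and leaving out KSP-negative replicate 2 a difference of 1.06.

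Calcr, the calcitonin receptor, had 4.86 and 4.65 in KSP-positive replicates, against 5.70 and 6.03 in KSP-negative replicates. Both KSP-positive arrays were lower, at signals near the filter level of 5.14. The difference was -1.11 (SE 0.53, adjusted p = 0.311). Grb10, an adaptor that dampens insulin and IGF receptor signalling, differed by 0.27 with overlap, and its 3 probe sets ran from -0.09 to 1.07. Gnas, the stimulatory G protein subunit, differed by 0.49 with no overlap, with 12.87 and 12.50 in KSP-positive replicates, against 12.27 and 12.12 in KSP-negative replicates. Its other probe sets above the filter gave -0.69 and -0.09, and the array gives no value for the separate Gnas products. Rasgrf1, a Ras exchange factor, differed by 0.50 with overlap.

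Of the regulators of growth in the Kcnq1 cluster, Cdkn1c and Phlda2 overlapped between the fractions. Cdkn1c, the cyclin-dependent kinase inhibitor p57, had 11.09 and 11.76 in KSP-positive replicates, against 11.03 and 11.18 in KSP-negative replicates, a difference of 0.32 with overlap. Phlda2, which restrains placental growth in the mouse, differed by -0.33 with overlap. Of 19 proliferation genes read beside them, limma called none in either direction (an unadjusted p under 0.05 held for 2, both lower), at a median of -0.51.

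Proteins of the ubiquitin system ran both ways. Asb4, an ankyrin repeat protein with the SOCS box of ubiquitin ligase substrate receptors, had 12.47 and 12.09 in KSP-positive replicates, against 11.45 and 10.34 in KSP-negative replicates. All KSP-positive values were higher. The difference of 1.38 (SE 0.40, 95% interval 0.50 to 2.27) did not pass (adjusted p = 0.0940). A second probe set gave 1.76, also with no overlap. Without KSP-negative replicate 1 the difference was 1.93 (adjusted p = 0.0191), and without KSP-negative replicate 2 it was 0.83. Ube3a, the ubiquitin ligase affected in Angelman syndrome, differed by 0.73 with no overlap on its brightest probe set, and its 6 probe sets ran from -0.38 to 0.73. Mkrn3, a makorin ring finger protein, had 6.08 and 6.69 in KSP-positive replicates, against 6.74 and 7.05 in KSP-negative replicates, a difference of -0.51.

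Among enzymes, transporters and trafficking proteins, Ampd3 and Slc22a18 exceeded 2-fold. Ampd3, an AMP deaminase, had 7.03 and 6.92 in KSP-positive replicates, against 6.07 and 5.68 in KSP-negative replicates, with the KSP-positive arrays close together and higher. The difference was 1.10 (SE 0.44, adjusted p = 0.216). Slc22a18, an organic cation transporter-like protein, had 5.89 and 6.05 in KSP-positive replicates, against 4.95 and 4.96 in KSP-negative replicates. The difference was 1.01 (SE 0.51, adjusted p = 0.334), while a dimmer probe set under the filter gave -1.65. Osbpl5, an oxysterol-binding protein family member, had 7.67 and 7.86 in KSP-positive replicates, against 6.82 and 6.89 in KSP-negative replicates, a difference of 0.91 (adjusted p = 0.237). Copg2, a coatomer subunit that overlaps the end of Mest, had 8.01 and 8.91 in KSP-positive replicates, against 9.92 and 8.98 in KSP-negative replicates. This difference of -0.995 (SE 0.44, adjusted p = 0.268) was the set's single one in the lower direction with an unadjusted p under 0.05. Mest, a hydrolase family protein named for its expression in mesoderm, differed by 0.52 with no overlap.

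**Figure D2:**
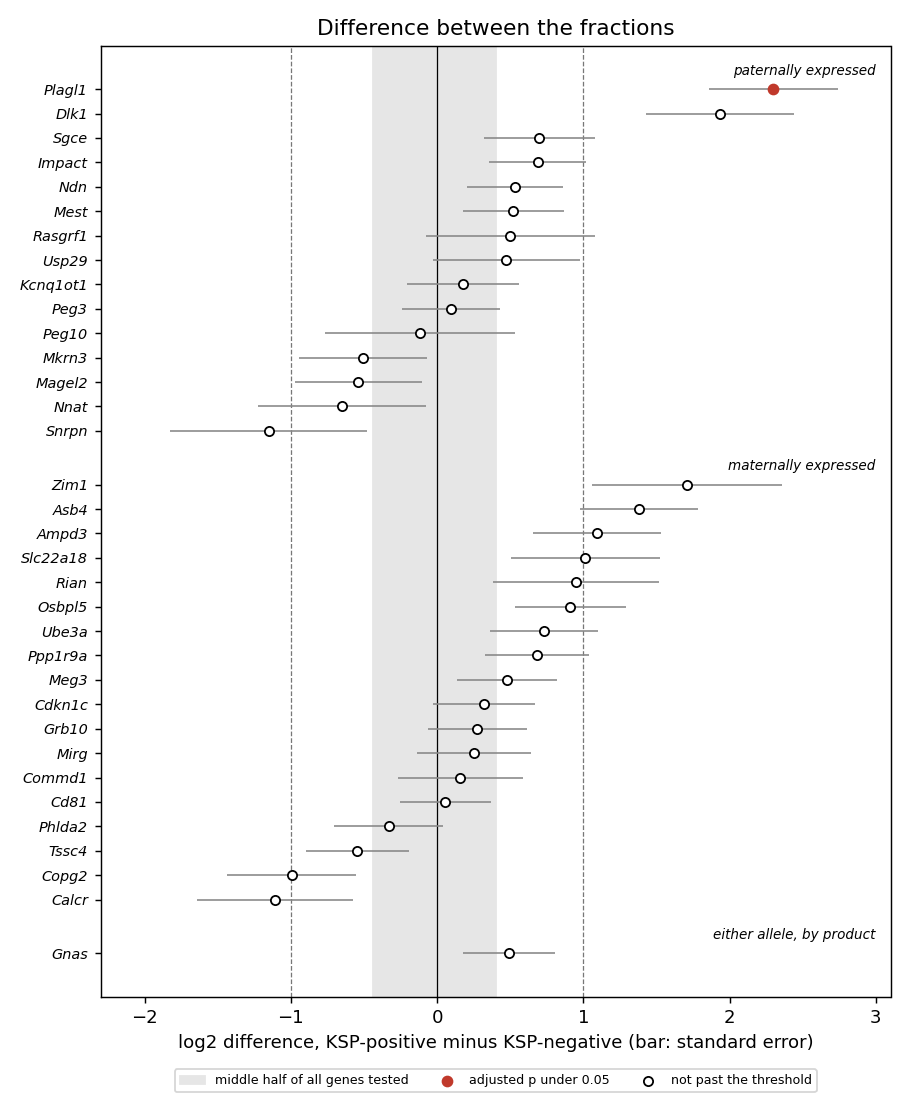
Log2 difference, KSP-positive minus KSP-negative (x axis), of the 34 imprinted genes (y axis), with standard errors as bars, dashed lines at 2-fold and the range between the quartiles of all genes tested (-0.44 to 0.41) shaded. Plagl1, filled, is the gene past the threshold at 2.30, and Dlk1, Zim1 and Asb4 follow at 1.93, 1.71 and 1.38.

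The long non-coding RNAs of the Dlk1-Dio3 cluster, which are expressed from the maternal allele opposite Dlk1, had positive differences on their brightest probe sets. Rian, which hosts small nucleolar RNAs, had 11.50 and 9.80 in KSP-positive replicates, against 10.37 and 9.03 in KSP-negative replicates, a difference of 0.95 with overlap (adjusted p = 0.422). KSP-positive replicate 2 lay under KSP-negative replicate 1, and without it the difference was 1.80 (adjusted p = 0.0339). Of its 4 probe sets, 3 gave 0.95 to 1.06. The fourth had 9.18 and 9.03 in KSP-positive replicates, against 12.45 and 9.12 in KSP-negative replicates, a difference of -1.68 that came from the high value of KSP-negative replicate 1. Meg3, a long non-coding RNA with growth-suppressing activity in cultured cells, had 13.59 and 12.93 in KSP-positive replicates, against 12.98 and 12.58 in KSP-negative replicates, a difference of 0.48 with overlap. Its 11 probe sets ran from -0.57 to 1.18 and 8 of them were positive. Mirg, which hosts microRNAs, differed by 0.25 on its brightest probe set and by 1.15 on the second. Over the 4 genes read in this cluster, 15 of 19 probe sets were positive, at a median of 0.67. Of the 19, 11 were of Meg3 and 4 of Rian, all read on the same 4 arrays, so they are not separate measurements of the cluster. In 14 of these 19 probe sets, replicate 1 exceeded replicate 2 in both fractions. Counted by gene and not by probe set, this replicate pattern was shown by 14 of the 34 imprinted genes (41.2%) and by 20.8% of all genes. Kcnq1ot1, the non-coding RNA that silences the Kcnq1 cluster on the paternal allele, differed by 0.18, and its 4 probe sets above the filter were all positive.

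The Prader-Willi cluster ran both ways. Ndn, a MAGE family protein, had 13.39 and 12.84 in KSP-positive replicates, against 12.47 and 12.70 in KSP-negative replicates, a difference of 0.53 with no overlap, and its 5 probe sets above the filter gave 0.34 to 0.82. Magel2, a second MAGE family protein, differed by -0.54 with overlap. Snrpn, a protein of the spliceosome, had 5.56 and 3.93 in KSP-positive replicates, against 5.34 and 6.45 in KSP-negative replicates, a difference of -1.15 with overlap (adjusted p = 0.413). This value comes from a single dim probe set, since its others are shared with Snurf. With Ube3a and Mkrn3, the cluster had a median of -0.51 over 5 genes.

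On their brightest probe sets, the other genes lay within 2-fold. In the Peg10-Sgce cluster, Sgce, a sarcoglycan, differed by 0.70 with no overlap, and by 1.01 with overlap on its second probe set. Ppp1r9a, the actin-binding protein neurabin, differed by 0.68 with no overlap, and its 4 probe sets above the filter ran from -0.45 to 0.68. Peg10, a protein derived from a retrotransposon, differed by -0.12 with overlap. Of the Kcnq1 cluster, Tssc4, a protein associated with the spliceosome, differed by -0.55 with no overlap and Cd81, a tetraspanin, by 0.05. Impact, a regulator of translation, differed by 0.69 with no overlap, and by -0.12 with overlap on its other probe set above the filter. Commd1, a COMM domain protein, differed by 0.16 with overlap, and Nnat, a membrane proteolipid, by -0.65 at signals near the filter level. Kcnq1 and Nap1l5 did not pass the filter. H19 was read only by a probe set shared with Mir675, and Rtl1, Dio3 and Zrsr1 matched no listed probe set, so these 4 genes were not analysed here.

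The classes of expressed allele overlapped widely. Paternally expressed genes had a median difference of 0.47, with 10 of 15 positive and quartiles of -0.31 and 0.61, and maternally expressed genes a median of 0.40, with 14 of 18 positive and quartiles of 0.08 and 0.94. The medians moved with single arrays. The paternal median was 0.08 when KSP-positive replicate 1 was left out and 0.14 when KSP-negative replicate 2 was, and the maternal median was 0.70 without KSP-positive replicate 2. Genes of 1 cluster expressed from opposite alleles stood on the same side in the Dlk1-Dio3 and Peg3 clusters, and on both sides in the Peg10-Sgce, Mest, Kcnq1 and Prader-Willi clusters.

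Different probe sets of a gene often disagreed. Of 76 probe sets above the filter, 56 were positive, 14 were over 2-fold higher and 3 over 2-fold lower. These are counts of probe sets and not of genes, with 11 from Meg3 alone. They stand without a share over all probe sets, so they only describe the probe sets read. Among the 17 genes with at least 2 probe sets above the filter, 10 had all of them on the same side of 0. Plagl1, whose brightest probe set carries its call, showed one of the wider gaps, whereas the 2 probe sets of Dlk1 and of Asb4 lay close together.

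**Figure D3:**
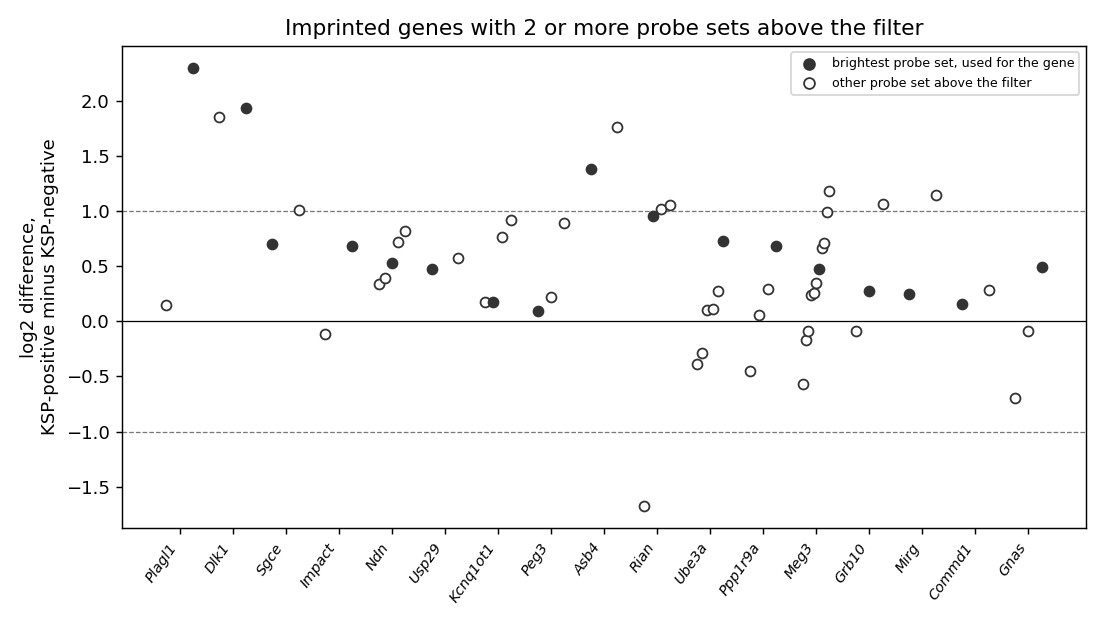
Log2 difference, KSP-positive minus KSP-negative (y axis), of each probe set above the filter for the 17 imprinted genes with at least 2 of them (x axis); filled circles are the brightest probe set, which stands for the gene, and open circles the others. Dlk1 and Asb4 hold their probe sets together, Plagl1 spans 0.15 to 2.30, and Rian has 1 probe set at -1.68.

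Of 38 further imprinted genes listed, 26 were tested, with a median of 0.14, and limma called 2 higher and none lower (3 and 1 at an unadjusted p under 0.05). Dcn, the matrix proteoglycan decorin, whose imprinting is placental and which also stands in the mesenchymal list, had 12.73 and 12.70 in KSP-positive replicates, against 11.21 and 9.39 in KSP-negative replicates, a difference of 2.41 (adjusted p = 0.0279). Qpct, glutaminyl cyclase, had 7.12 and 6.69 in KSP-positive replicates, against 4.85 and the floor of 3.62 in KSP-negative replicates, a difference of 2.67 (adjusted p = 0.0324). Qpct was above the filter level in KSP-positive cells only, and its difference depended on the floor, at 1.69 (adjusted p = 0.0546) with a 40th percentile floor and 3.43 (adjusted p = 0.0461) with none. Neither call held without KSP-negative replicate 2, where Dcn differed by 1.504 (adjusted p = 0.102) and Qpct by 2.05 (adjusted p = 0.156). Dcn was also not called with no intensity trend (adjusted p = 0.0670) or with every probe set tested alone (0.0612), and Qpct neither without KSP-positive replicate 1 (0.0568) nor with every probe set tested alone (0.0585). Next by p came Sfmbt2, a Polycomb-related gene, with 7.16 and 7.53 in KSP-positive replicates, against 8.53 and 9.27 in KSP-negative replicates (difference -1.56, adjusted p = 0.0603), then Klf14 and Pon3 at differences of 0.91 and 1.07 with no overlap, and Igf2r at 1.23 with overlap. Igf2, the fetal growth factor, differed by 0.04 with overlap.

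Of 30 genes listed under imprint establishment and maintenance, a broad list that also held the Tet enzymes, 26 were tested, with a median of -0.32. None was called higher by limma and 3 were called lower (1 and 8 at an unadjusted p under 0.05). Dnmt3l, the cofactor of the de novo methyltransferases, had the floor of 3.62 and 4.31 in KSP-positive replicates, against 6.87 and 8.41 in KSP-negative replicates, a difference of -3.67 (adjusted p = 0.0106). It was above the filter level in KSP-negative cells only, and the size depended on the floor, at -2.42 (adjusted p = 0.0340) with a 40th percentile floor and -4.50 (adjusted p = 0.0155) with none. Dnmt3b, a de novo methyltransferase, had 9.90 and 9.77 in KSP-positive replicates, against 11.33 and 12.55 in KSP-negative replicates, a difference of -2.11 (adjusted p = 0.0217). Dppa3, which protects maternal methylation in the zygote, had 5.49 and 5.29 in KSP-positive replicates, against 6.98 and 8.03 in KSP-negative replicates, a difference of -2.11 (adjusted p = 0.0408). All 3 are also expressed in ES cells, and Dnmt3l stands in the pluripotency list too. Without KSP-negative replicate 2 none of these calls held, at adjusted p = 0.0889, 0.108 and 0.297. Dnmt3b was also not called with no intensity trend (adjusted p = 0.0541), and Dppa3 neither with quantile normalization (0.0523) nor with every probe set tested alone (0.0718). Hells (-1.42), Tet1 (-1.42), Suz12 (-1.04) and Tet2 (1.19) followed without passing. The maintenance genes Dnmt1, Trim28 and Zfp445 differed by -0.66, -0.44 and 0.01, and none of them passed.

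Markers of several cell types moved with the fractions. Of mesenchymal and matrix genes, 10 of 23 were called higher, at a median of 1.65, and their summed signal was 132500 and 98740 in KSP-positive replicates, against 62360 and 38830 in KSP-negative replicates, with none at the floor throughout a fraction. Of macrophage genes, 15 of 21 were called higher, at a median of 2.67, with sums of 34430 and 16450 in KSP-positive replicates, against 3735 and 3595 in KSP-negative replicates, where C1qa was at the floor. Of pluripotency genes, 18 of 22 were called lower, at a median of -3.40, with sums of 10140 and 11530 in KSP-positive replicates, against 25610 and 44340 in KSP-negative replicates. Fgf4, Nanog, Utf1, Nr0b1 and Dnmt3l of this list were above the filter level in KSP-negative cells only. C1qa, Fcgr1 and C1qc of the macrophage list were above it in KSP-positive cells only. These counts and medians therefore only describe the genes that passed. Of visceral endoderm and liver genes 5 of 17, and of trophoblast genes 3 of 7, were called lower. Neuronal genes had 1 of 15 called in each direction, at a median of -0.63 and with 13 of the 15 negative. Of 12 muscle genes limma called none (2 in each direction at an unadjusted p under 0.05).

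The order of the 4 arrays in the mesenchymal sum, with KSP-positive replicate 1 highest and KSP-negative replicate 2 lowest, was shared by 7 imprinted genes, Mest, Dlk1, Zim1, Gnas, Asb4, Ppp1r9a and Ampd3 (20.6% of 34), by 13 of 23 mesenchymal genes and by 8.2% of all genes. This order was chosen after the values were seen. It was read from the sum of the same 23 mesenchymal genes, so their share was partly fixed in advance. The order also requires no overlap between the fractions, which held for 41.2% of the imprinted genes and 24.4% of all genes in the higher direction. Plagl1 did not follow the order, since replicate 2 was the higher in both fractions. The part of mesenchymal cells, macrophages and residual pluripotent cells in the differences of the imprinted genes was not tested. The 3′ to 5′ signal ratio of the actin control probe sets, a sign of RNA integrity, was 2.92 and 1.80 in KSP-positive replicates, against 1.79 and 3.55 in KSP-negative replicates. For Gapdh it was 3.11 and 1.86, against 2.02 and 2.72. These ratios overlapped between the fractions. Both were highest in KSP-positive replicate 1 and KSP-negative replicate 2, the arrays at the ends of the order above. The part of RNA integrity in the differences was not tested.

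**Figure D4:**
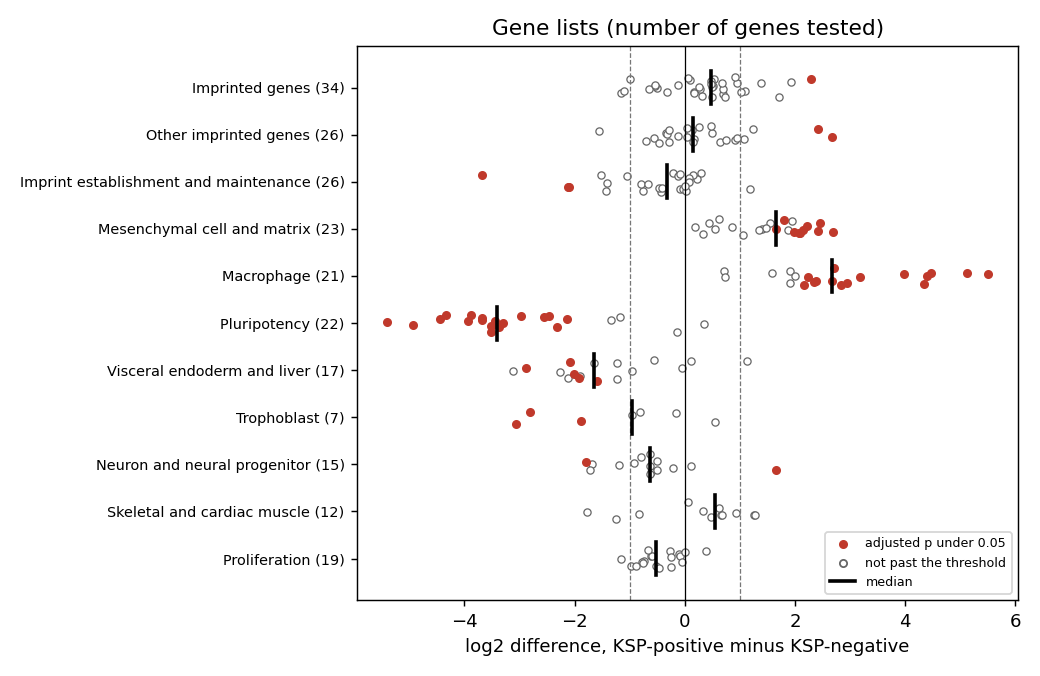
Log2 difference, KSP-positive minus KSP-negative (x axis), of each gene in the imprinted set and in 10 other lists (y axis, with each list's number of tested genes); filled circles passed an adjusted p under 0.05 and the thick line is the median. The imprinted genes centre at 0.48 with 1 filled circle, the mesenchymal list at 1.65 and the pluripotency list at -3.40.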

How the data were processed

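Total RNA of 4 samples was hybridized to Affymetrix mouse genome arrays after 2-cycle labelling with biotin. The authors deposited 1 linear signal intensity per probe set and array, and the submitters' processing notes name MAS5 with no version. The setting used in GeneSpring is not given in the sources used here. After 64 control probe sets were left out, the arrays were brought to the same 75th percentile, a signal of 281. A floor was set at the 20th percentile (12.3, log2 3.62) before the log2 was taken. Probe sets with a mean under the 40th percentile (log2 5.14) were left out, and the brightest single-gene probe set stood for its gene. This gave 12849 genes. KSP-positive and KSP-negative arrays were tested against each other in limma 3.58.1 under R 4.3.3 (empirical Bayes with an intensity trend), and p-values were adjusted by Benjamini and Hochberg over all genes. A call is an adjusted p under 0.05. The procedure was tested on simulated data, and figures were drawn with matplotlib 3.10.9.

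The genes, the gene lists and the assignment of expressed alleles, which was written from general knowledge, were chosen with earlier results of these data known. Each gene of the set was to be accounted for. Full values were to be given for those past the threshold or over 2-fold without overlap, together with any further probe set of these that differed in sign or by over 2-fold. From the lists of other imprinted genes and of imprint maintenance, the genes called and up to 4 more with the smallest p were to be named. Other genes given with values were added after their values were seen. Replicate numbers are tied to the experiments by no source, so replicates were not paired. Alternatives covered scaling, floor, filter, choice of probe set, test, replicate block and leaving out each array.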

Additional observations from a re-analysis of the deposited data

How the results depend on the processing

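With 2 arrays per fraction, the count of calls moved with the processing. The 1 imprinted gene called higher became 3 with values as deposited (Asb4, Dlk1 and Plagl1), 0 when the probe sets of a gene were averaged, 0 with no filter, where no gene of 18193 was called by limma, and 0 by the methods' t-test, where no gene was called at all and an unadjusted p under 0.05 held for 3 imprinted genes in the higher direction and 1 in the lower. Without single replicates it ranged between 1 and 4, with Plagl1 lost without KSP-negative replicate 1. Of the further imprinted genes, 1 was called lower with robust empirical Bayes and 1 with the replicate block. No gene of the imprinted set was called lower in any of these fits. The 6 genes over 2-fold higher became 11 when every probe set was tested alone and a gene counted if any of its probe sets passed, and the 2 over 2-fold lower, Snrpn and Calcr, became 0 with a 40th percentile floor and 0 with a 60th percentile filter. The paternal median of 0.47 was 0.19 with that floor and ranged from 0.0770 to 0.58 without single replicates. The maternal median of 0.40 ranged from 0.27 to 0.70. Where they were tested, none of the 7 imprinted genes that were past the threshold or over 2-fold without overlap changed direction. Ampd3, Calcr and Slc22a18 were not tested with the 60th percentile filter. With no filter and by the methods' t-test, Dcn, Qpct, Dnmt3l, Dnmt3b and Dppa3 lost their calls too.

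With the replicate number as a block, 4 imprinted genes were called higher (Asb4, Dlk1, Plagl1 and Zim1). The correlation of the deviations of same-numbered samples was 0.166, from 2 pairs that share only a number. Over all genes, the 236 called higher and 212 lower became 571 and 560 with the block, 286 and 352 with values as deposited, 368 and 424 when KSP-positive replicate 2 was left out, 343 and 275 when KSP-negative replicate 1 was, and 72 and 52 when KSP-negative replicate 2 was.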

Other observations

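Several dim probe sets under the filter were without overlap between the fractions and were not tested. Kcnq1, a potassium channel gene expressed from the maternal allele in the embryo, had log2 signals of 5.52 and 5.64 in KSP-positive replicates 1 and 2, against 4.45 and the floor of 3.62 in KSP-negative replicates 1 and 2. Nap1l5, a paternally expressed gene of the nucleosome assembly protein family, had 4.34 and 3.86 in KSP-positive replicates, against 5.08 and 5.95 in KSP-negative replicates. A further probe set of Kcnq1ot1 was at the floor in both KSP-positive replicates, against 5.30 and 4.91 in KSP-negative replicates, opposite in direction to its 4 brighter probe sets. Zfp57, the zinc finger protein that guards imprints in ES cells and the early embryo, was also at the floor in both KSP-positive replicates, against 4.60 and 5.66 in KSP-negative replicates. These genes were singled out after their values were seen.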
